A study of Mus musculus with 20 samples.

Results

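The RNAs described here are 4 abundant noncoding RNAs made by RNA polymerase III: 7SL RNA (RN7SL1 and RN7SL2 in human, Rn7s1 and Rn7s2 in mouse), 7SK RNA (RN7SK, Rn7sk), the RNase MRP RNA (RMRP, Rmrp) and the RNase P RNA (RPPH1, Rpph1). They were chosen by exact gene name because 7SL takes a large part of the human signal in humanized livers, so their levels are a description with no test, and the comparison of HuR KD with LacZ is tested. The 10 names matched 12 gene entries, 6 in the human table and 6 in the mouse table, of 115942 entries in both tables, since RMRP and Rmrp each have 2 entries. The livers came from mice given an adenovirus with a short hairpin RNA against HuR (HuR KD) or a LacZ control virus. The hairpin was not the same throughout: humanized mice received one against human HuR and WT mice a different one against mouse HuR. HuR, encoded by ELAVL1, is an RNA-binding protein that binds U-rich and AU-rich stretches of messenger RNAs. The dose was 2000000000 pfu per mouse, and livers were taken 7 days later after a 4 h fast. The humanized groups, 4 HuR KD and 4 LacZ, were TK-NOG mice, immune-deficient animals with a herpes simplex thymidine kinase transgene under the mouse albumin promoter. Ganciclovir at 25 mg/kg at 8 to 9 weeks of age removed the host hepatocytes that carry the transgene, and primary human hepatocytes were transplanted, into mice that keep their own other liver cells. Mice were used 8 to 12 weeks after transplantation when serum human albumin was above 0.5 mg/ml, and only human genes were deposited for them. The paper states that few hepatocyte donors were used, and the donor of each liver is not in the sample labels. Donor was therefore not part of any fit. The WT groups, 6 HuR KD and 6 LacZ, were male C57BL/6 mice bought at 8 weeks of age and kept for 10 to 14 days before use.

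7SL RNA is the scaffold of the signal recognition particle, which brings ribosomes making secreted proteins to the endoplasmic reticulum, a heavy task in a liver that secretes most plasma proteins. 7SK RNA holds the kinase P-TEFb inactive and so restrains elongation by RNA polymerase II. RNase P trims the leader of precursor transfer RNAs, and RNase MRP, which shares most of its proteins, cuts precursor ribosomal RNA. The 7SK, RNase MRP and RNase P RNA genes are read from promoters in front of the gene, whereas 7SL genes also carry promoter elements inside the transcribed part. None of these RNAs has a poly(A) tail, so they are seen in libraries of total RNA such as these.

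The mouse RNA sequences decide how far reads can be told apart, and those of Rn7sk, Rpph1 and Rmrp are shown for that reason. They are from the GENCODE M21 annotation of GRCm38 and are written as DNA on the strand of the gene. Rn7s1 and Rn7s2, both on chromosome 12, did not differ at any of their 300 bases. Rn7sk lies at chr9:78175303-78175633 (minus strand, 331 bases) and Rpph1 at chr14:50807449-50807767 (minus strand, 319 bases); the first 300 bases of each are given, with capitals for bases in no 50-base window that another annotated transcript holds (50 bases is the read length of the WT libraries). No base of Rmrp is in capitals. The Rmrp entry typed as a ribozyme lies at chr4:43492788-43493058 (minus strand) and is given whole.
Rn7sk, bases 1 to 300: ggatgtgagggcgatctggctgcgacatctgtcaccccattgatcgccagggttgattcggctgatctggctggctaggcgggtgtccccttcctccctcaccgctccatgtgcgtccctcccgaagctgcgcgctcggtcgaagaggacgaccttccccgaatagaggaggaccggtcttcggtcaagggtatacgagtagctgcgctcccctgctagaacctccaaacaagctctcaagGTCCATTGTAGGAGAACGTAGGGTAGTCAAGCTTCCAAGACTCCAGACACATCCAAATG
Rpph1, bases 1 to 300: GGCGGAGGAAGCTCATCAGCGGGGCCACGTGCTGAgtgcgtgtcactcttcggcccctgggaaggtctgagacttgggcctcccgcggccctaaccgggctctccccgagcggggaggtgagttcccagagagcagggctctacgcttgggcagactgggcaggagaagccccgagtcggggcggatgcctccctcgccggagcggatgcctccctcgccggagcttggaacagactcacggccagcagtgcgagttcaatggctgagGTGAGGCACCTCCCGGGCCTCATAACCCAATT
Rmrp: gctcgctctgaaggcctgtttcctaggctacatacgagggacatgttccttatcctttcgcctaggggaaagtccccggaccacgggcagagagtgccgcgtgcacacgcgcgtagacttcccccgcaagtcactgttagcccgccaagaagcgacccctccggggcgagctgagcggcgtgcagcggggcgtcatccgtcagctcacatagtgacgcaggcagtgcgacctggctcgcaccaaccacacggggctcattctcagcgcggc

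All 251 windows of 50 bases in Rn7s1 also stood in Rn7s2, so no read of that length inside either gene can be assigned from its letters. In Rn7sk, 192 of 282 windows also stood in other annotated transcripts, the most in Gm24447, and the last 90 bases were its own. In Rpph1, 184 of 270 windows (68.1%) also stood in Ccnb1ip1, a protein-coding gene of the same strand that overlaps 284 bases of Rpph1. Of the Rmrp ribozyme entry, all 222 windows stood in the second Rmrp entry, a lincRNA of 281 bases at chr4:43492783-43493063 that encloses it. The pentamer ATTTA was in none of these RNAs, and TTTNTTT was in Rn7sk alone, once (searched on the RNA strand). Among 5627 annotated mouse transcripts of 250 to 350 bases, 18.5% held ATTTA and 12.4% held TTTNTTT.

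Reads per library, worked back from the step size of the deposited TPM (transcripts per 1000000, a level per length), ran from 2670469 to 20302454 in humanized livers and from 1424175 to 44669657 in WT livers. HuR KD 4 and LacZ 2 of the humanized livers were the deepest and had the most similar profiles (Pearson r 0.97 across genes tested, against 0.93 for the next pair). WT LacZ 2 was the shallowest library, and WT HuR KD 6, with 12960930 reads, had 4.23% of its TPM on snoRNA genes against 1.28% to 1.66% in the other WT livers. HuR itself was lower in every knockdown liver than in any control of its set. ELAVL1 was at 2.37 to 4.05 TPM with knockdown and 4.77 to 6.17 with LacZ (log2 difference -0.59 ± 0.17 SE, adjusted p = 0.214, limma), and Elavl1 at 3.72 to 5.62 and 8.58 to 10.7 TPM (-0.83 ± 0.089 SE, adjusted p = 0.00105, limma). Groups did not overlap for 7.16% of human and 2.49% of mouse genes tested. Hepatocyte markers summed to 49833 to 98716 TPM in humanized and 78688 to 99409 TPM in WT livers. In the human table, T and NK cell markers were at 0 (5 of 5), Kupffer markers summed to at most 4.83 TPM and stellate markers to 0.814 to 1.73 TPM with knockdown and 2.53 to 4.87 with LacZ. Of 4 human cholangiocyte markers tested, 2 were lower with knockdown, where 7.87% of all human genes tested were lower. In WT livers 4 of 7 Kupffer markers were lower with knockdown (summed 259 to 451 against 369 to 504 TPM), where 6.94% of all mouse genes tested were lower. Besides these, 1 of 6 stellate and 1 of 3 T and NK cell markers were lower in WT livers. In the same livers 1 of 6 endothelial and 1 of 4 erythroid markers were higher, where 9.09% of all mouse genes tested were higher. The part of these other cells in the results below was not tested, and in whole liver fewer cells of a type and less RNA per cell cannot be told apart.

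RN7SL1 (ENSG00000276168.1) was the top entry of the human table by TPM, or the next after the mitochondrial MT-RNR2, in every humanized liver. In the HuR KD livers 1 to 4 it was at 256143, 351497, 221402 and 142287 TPM. In the LacZ livers 1 to 4 it was at 303919, 151048, 284734 and 187244 TPM. Both groups held high and low livers, the groups overlapped over most of their range, and the lowest livers were HuR KD 4 and LacZ 2. RN7SL1 thus held 14.2% to 35.1% of all human TPM, 24.3% ± 8.67 (SD, n = 4) with knockdown and 23.2% ± 7.42 (SD, n = 4) with LacZ. These livers also hold mouse cells, and how reads that match 7SL of both species were counted is not given in the sources used here. The part of mouse RNA in these values was not tested. Because TPM divides by length, and the RN7SL1 gene behind these values has 299 bases, the same libraries gave it only 2.32% to 6.84% of reads. ALB, the albumin messenger RNA with a length of 3431 bases, took 6.07% to 13.0% of reads in these livers and yet stood 2.55 to 7.77 times below RN7SL1 in TPM.

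**Figure D1:**
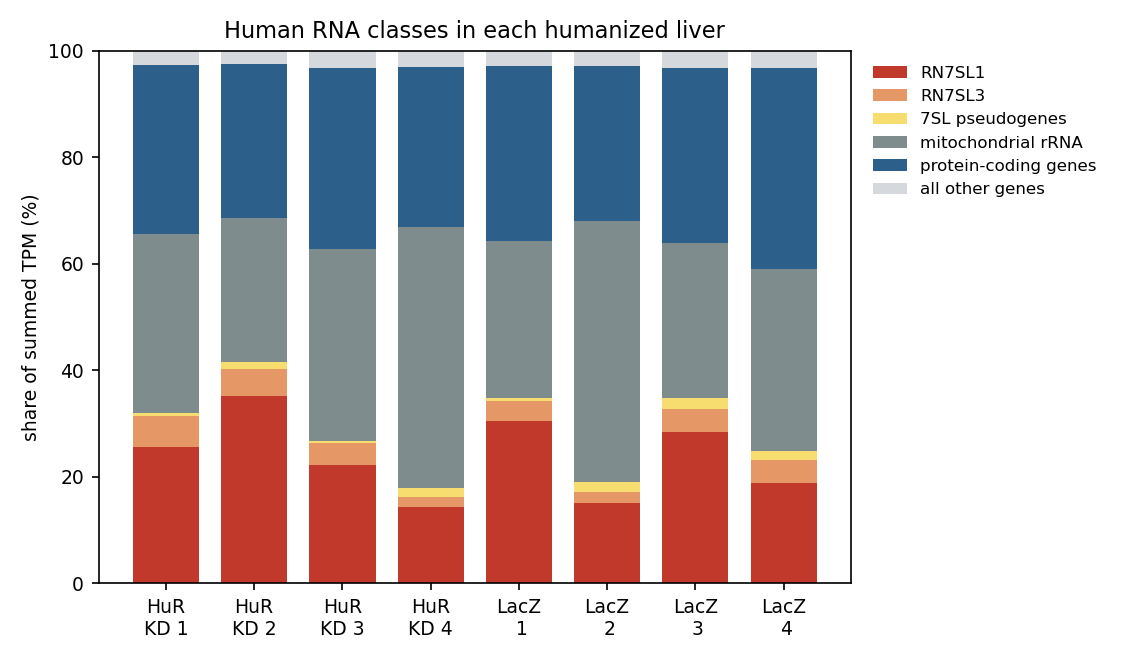
Stacked bars give the percent of summed TPM held by each class of human genes in the 4 HuR KD and 4 LacZ humanized livers. RN7SL1 runs from 14.2% to 35.1%, and mitochondrial rRNA from 27.2% to 49.1%, with its highest values in HuR KD 4 and LacZ 2.

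Mitochondrial rRNA was high where RN7SL1 was low. It held 49.1% of TPM in each of HuR KD 4 and LacZ 2, where RN7SL1 was lowest, and 27.2% in HuR KD 2, where RN7SL1 was highest. Since the values of a library sum to 1000000, a class that is high lowers the others, and the part of mitochondrial rRNA in the range of RN7SL1 was not tested. With mitochondrial rRNA taken out of the sum, RN7SL1 held 28.0% to 48.3% of what was left. Its range over the 8 livers was then 1.73-fold, against 2.47-fold before.

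HuR knockdown gave no detectable difference in RN7SL1. The log2 difference on the log2(TPM + 1) scale was 0.053 ± 0.33 (SE), with a ratio of 1.04 and a 95% interval of 0.617 to 1.75 (p = 0.877, adjusted p = 0.977, limma; exact permutation test p = 0.914, two-sided, where 0.0286 is the smallest p that 4 against 4 livers allow). Of all human genes tested, 11.5% passed the same unadjusted threshold of 0.05. The sign of the difference turned when HuR KD 2, LacZ 2 or LacZ 4 was left out (-0.15, -0.13 and -0.030), so no direction can be given. The spread of RN7SL1 between livers of a group, 0.51 as an SD on the log2 scale, was wider than in 76.7% of the human genes tested.

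The other human entries were listed at 0. RN7SL2 (ENSG00000274012.1), RN7SK (ENSG00000283293.1), both RMRP entries (ENSG00000269900.3, ENSG00000277027.1) and RPPH1 (ENSG00000277209.1) had the value 0 in all 8 libraries. These RNAs serve every cell, so the 0 is given as listed and not as a level, with no difference, and none of the 5 entries entered a test. Entries related in sequence did carry signal in the same libraries. Of 293 7SK pseudogene entries, 55 were above 0 in some liver, with a sum of 793 to 1413 TPM per library, most of it at RN7SKP203 (423 to 827 TPM) and RN7SKP80 (180 to 357 TPM). The RMRP pseudogene entry and both RNase P RNA pseudogene entries were listed at 0 as well.

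RN7SL3, another 7SL gene and not one of the listed names, was the next human 7SL gene. In the HuR KD livers 1 to 4 it was at 56943, 49917, 41420 and 20435 TPM, and in the LacZ livers at 38501, 20793, 42066 and 44241 TPM. It was lowest in HuR KD 4 and LacZ 2, the livers where RN7SL1 was lowest, and its groups overlapped. RN7SL1 stood above it by 4.23 to 7.89 times. How reads that match both genes were assigned is not given in the sources used here, so this split cannot be told apart from that assignment. The log2 difference of RN7SL3 with knockdown was 0.17 ± 0.36 (SE; adjusted p = 0.905, limma; exact permutation p = 0.6).

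RN7SL5P, annotated as a pseudogene, varied far more than the other abundant 7SL entries. It was at 2343, 8332, 1190 and 12503 TPM in HuR KD livers 1 to 4 and at 1881, 15155, 17242 and 12664 TPM in LacZ livers 1 to 4. HuR KD 1, HuR KD 3 and LacZ 1 were low and the other 5 livers were at 8332 or above, so both groups held low livers. Its ratio to RN7SL1 was not held: RN7SL1 was 9.97 to 186 times higher. Within groups its SD on the log2 scale was 1.54, wider than in 98.6% of the human genes tested. The log2 difference with knockdown was -1.11 ± 0.88 (SE; adjusted p = 0.692, limma; exact permutation p = 0.257). It passed the unadjusted threshold in 1 of 21 alternatives, when LacZ 1 was left out (log2 difference -1.85). Together with RN7SL3 and the RN7SL pseudogenes, 7SL entries held 17.8% to 41.5% of human TPM.

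**Figure D2:**
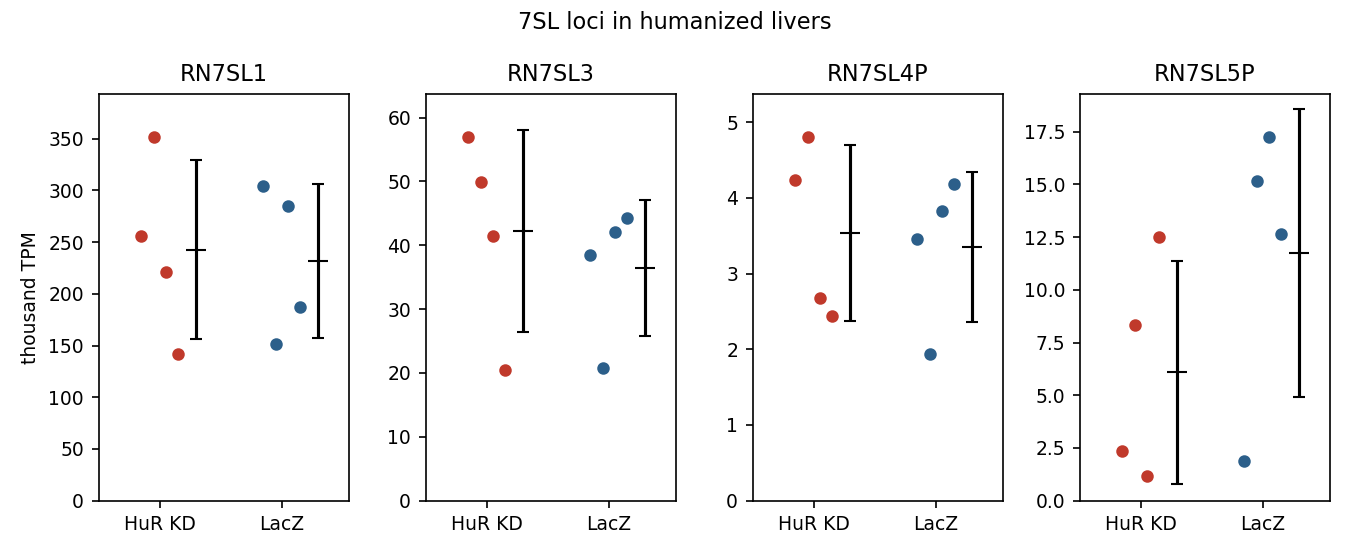
Each panel gives 1 human 7SL entry in TPM / 1000 on a linear axis from 0, with a point for each of the 4 HuR KD and 4 LacZ livers and, beside them, the mean with its SD. The groups overlap in all 4 panels, and RN7SL5P runs from 1190 to 17242 TPM.

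In WT livers Rn7s2 (ENSMUSG00000099250.1) was the top mouse entry by TPM in all 12 libraries. In the HuR KD livers 1 to 6 it was at 69501, 64566, 73082, 74649, 68396 and 69836 TPM, and in the LacZ livers at 65054, 88747, 69963, 68509, 70199 and 70274 TPM. All livers but LacZ 2 lay close together and the groups overlapped. LacZ 2, the shallowest library, was the highest, on 15702 reads. Rn7s2 was among the steadier mouse genes, with a within-group SD of 0.12 on the log2 scale, below that of most genes tested (15.8% were lower). The log2 difference with knockdown was -0.037 ± 0.12 (SE), a ratio of 0.975 with a 95% interval of 0.811 to 1.17 (adjusted p = 0.916, limma; exact permutation p = 0.712), and it was 0.024 without LacZ 2.

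Rn7s1 (ENSMUSG00000099021.1), the same sequence at a second place on chromosome 12, was listed far lower. In the HuR KD livers 1 to 6 it was at 4407, 3641, 4639, 4866, 4651 and 2300 TPM, and in the LacZ livers at 4197, 5126, 4460, 4928, 4550 and 4358 TPM. HuR KD 6 stood lowest and the other 11 livers lay between 3641 and 5126. Rn7s2 was 13.9 to 17.7 times Rn7s1 in those 11 livers and 30.4 times in HuR KD 6, although the genes do not differ in sequence. How reads that match both genes were assigned is not given in the sources used here, so the split between them cannot be told apart from that assignment, and their sum is given too. That sum was 6.82% to 7.95% of TPM with knockdown and 6.93% to 9.39% with LacZ. In HuR KD 6 it was 7.21%, within the range of the other livers. The log2 difference of Rn7s1 with knockdown was -0.21 ± 0.16 (SE; adjusted p = 0.585, limma; exact permutation p = 0.279), and it came to -0.056 without HuR KD 6. The miRNA entries Gm47287 and Gm47295, which lie over Rn7s1 on its strand, and Gm47299 and Gm47305, which lie over Rn7s2, were listed at 0 in all 12 livers.

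Rn7s6, a 7SL-related entry that shares 124 of its 242 windows with Rn7s1 and Rn7s2, was at 55.4 to 87.4 TPM, and its groups overlapped (log2 difference -0.014 ± 0.10 SE, adjusted p = 0.962, limma).

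Rn7sk (ENSMUSG00000065037.1) was the next most abundant of these RNAs in mouse. In the HuR KD livers 1 to 6 it was at 53687, 57455, 52720, 59538, 59020 and 25149 TPM, and in the LacZ livers at 54601, 55985, 54220, 49120, 51470 and 51662 TPM. HuR KD 6 stood below all others and was the single low liver, whereas 3 of the other knockdown livers lay above every LacZ liver. The log2 difference was -0.099 ± 0.20 (SE), a ratio of 0.934 with a 95% interval of 0.69 to 1.26 (adjusted p = 0.857, limma; exact permutation p = 0.97). Without HuR KD 6 the difference turned to 0.096 ± 0.10 (SE; adjusted p = 0.651, limma), so its sign rests on that library. Gm24447, the entry that shares most windows with Rn7sk, was at 559 to 875 TPM, and Gm26035, with 107 shared windows, was at 19.7 to 34.6 TPM in 11 livers and at 112 TPM in HuR KD 6. Both entries were highest in HuR KD 6, where Rn7sk was lowest.

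**Figure D3:**
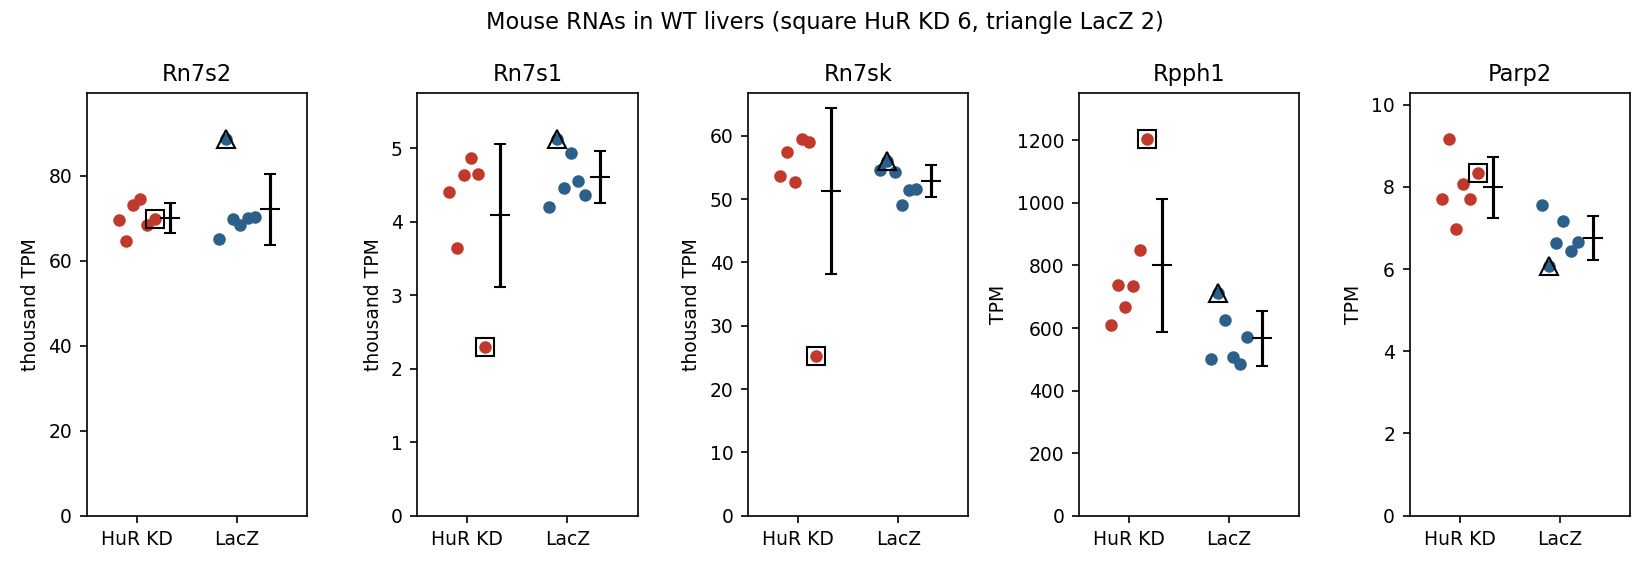
Each panel gives 1 mouse gene in the 6 HuR KD and 6 LacZ WT livers on a linear axis from 0, in TPM / 1000 or in TPM, with the mean and its SD beside the points. HuR KD 6 (square) is lowest for Rn7s1 and Rn7sk and highest for Rpph1, and Parp2 is lowest in LacZ 2 (triangle).

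Rpph1 (ENSMUSG00000092837.1), the RNase P RNA, was the 1 entry of the 5 tested that passed the unadjusted threshold. Of the mouse genes tested, 16.0% passed it, 9.09% with higher values in knockdown, and 0.888% passed an adjusted p of 0.05. In the HuR KD livers 1 to 6 it was at 611, 736, 667, 733, 848 and 1205 TPM. In the LacZ livers 1 to 6 it was at 500, 712, 624, 507, 484 and 573 TPM. The knockdown livers lay higher, 4 of 6 above every LacZ liver, while HuR KD 1 and HuR KD 3 lay below LacZ 2, the highest control. The means were 800 ± 214 and 567 ± 88.7 TPM (SD, n = 6 each). Rpph1 was higher by 0.47 ± 0.15 (SE) on the log2 scale, a ratio of 1.39 with a 95% interval of 1.10 to 1.75 (p = 0.00908, adjusted p = 0.158, limma; two-sided exact permutation test p = 0.013, with 0.00216 the smallest it can give). It did not pass after adjustment over all genes. Without HuR KD 6 the log2 difference was 0.35 (adjusted p = 0.124, limma), and with HuR KD 6 and LacZ 2 both left out it was 0.42 (adjusted p = 0.0385, limma), a setting in which 3499 mouse genes passed the unadjusted threshold against 2418 over all livers. Over the 24 alternatives the adjusted p was 0.0385 to 0.309. The value of LacZ 2 rested on 134 reads, against 2047 to 3558 in the other 11 livers. Ccnb1ip1, which overlaps Rpph1 by 284 bases on its strand, was listed at 0 in all 12 livers. How reads in that overlap were counted is not given in the sources used here, so the TPM of Rpph1 may not be its full level.

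Parp2, which encodes a DNA repair enzyme, starts next to Rpph1 and is read in the other direction. It is described because of this position and was chosen after the values of Rpph1 were seen. The RefSeq promoter table for GRCm38.p6 gives 300 bases around the start of Parp2 (chr14:50807666-50807965, plus strand), of which the first 102 are the start of Rpph1 on the opposite strand and the next stretch is the shared space, since 148 bases separate the start sites. The corresponding table entry for Ccdc107 (chr4:43493115-43493414, plus strand) covers part of the space in front of Rmrp, which is read from the other strand. Neither Rpph1 nor Rmrp has an entry of its own there. The Ccdc107 window holds no base of Rmrp, which starts at 43493058, and leaves out the bases directly in front of that start. The GENCODE model of Ccdc107 starts further back and overlaps the Rmrp ribozyme entry by 159 bases on the other strand. Capitals mark ATTTGCAT, the octamer, on either strand (ATGCAAAT as its complement) and TATAA on either strand, elements known from promoters of this class.
Parp2 and Rpph1: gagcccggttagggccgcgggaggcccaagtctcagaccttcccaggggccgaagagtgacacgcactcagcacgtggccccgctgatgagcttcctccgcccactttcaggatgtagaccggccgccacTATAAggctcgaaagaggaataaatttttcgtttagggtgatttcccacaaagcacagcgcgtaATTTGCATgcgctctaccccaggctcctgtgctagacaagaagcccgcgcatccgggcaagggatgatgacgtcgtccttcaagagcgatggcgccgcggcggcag
Ccdc107 and Rmrp: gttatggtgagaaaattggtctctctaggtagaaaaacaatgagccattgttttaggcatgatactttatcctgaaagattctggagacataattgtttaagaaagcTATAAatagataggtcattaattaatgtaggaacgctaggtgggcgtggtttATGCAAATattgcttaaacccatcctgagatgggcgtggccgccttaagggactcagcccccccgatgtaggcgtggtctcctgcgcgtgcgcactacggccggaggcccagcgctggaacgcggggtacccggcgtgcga

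Each window held 1 octamer and 1 TATAA. In both, the letters TATAA stood on the strand of Parp2 or Ccdc107 and not on that of Rpph1 or Rmrp. The strand does not tell which gene an element serves, and that was not tested. Of 32851 mouse promoters of this length in the table, 1.74% held ATTTGCAT and 24.9% held TATAA on either strand. Parp2 was at 6.97 to 9.17 TPM in the 6 knockdown livers and 6.08 to 7.57 TPM in the 6 LacZ livers, with 5 of 6 knockdown livers above every LacZ liver. It was higher with knockdown by 0.21 ± 0.072 (SE) on the log2 scale (adjusted p = 0.173, limma; exact permutation p = 0.0108), and it passed the unadjusted threshold under all 24 alternatives (log2 difference 0.18 to 0.25). LacZ 2 gave 13 reads for it. Ccdc107, at 40.8 to 122 TPM, had a log2 difference of -0.17 ± 0.21 (SE; adjusted p = 0.752, limma), with its highest value in LacZ 2.

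Both Rmrp entries (ENSMUSG00000115420.1, ENSMUSG00000088088.1) were listed at 0 in all 12 WT livers, as both RMRP entries were in humanized livers. The entries overlap each other on 1 strand, and RNase MRP serves every cell, so the 0 is not read as a level and no difference can be given.

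**Figure D4:**
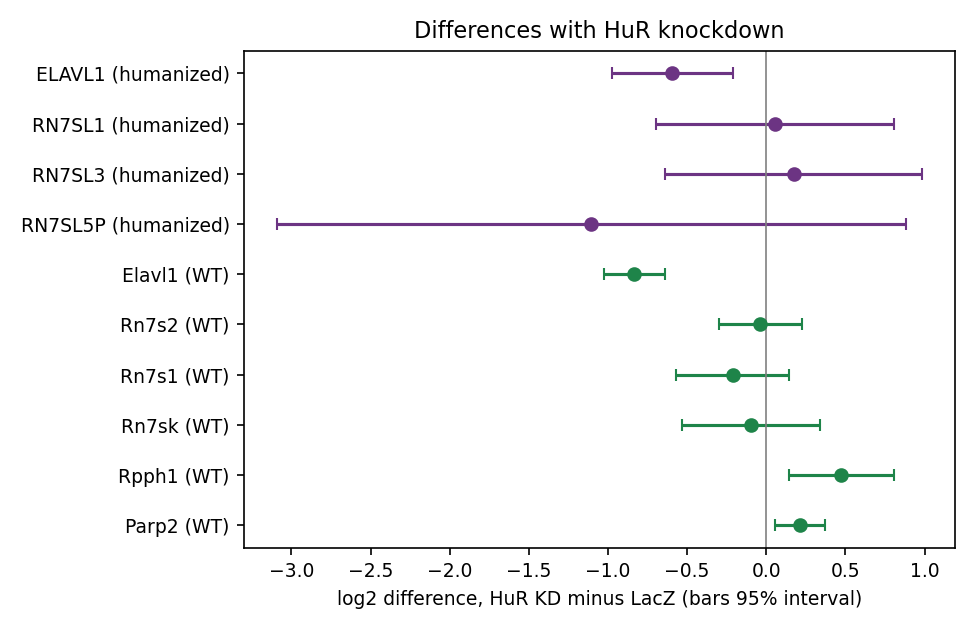
Points give the log2 difference between HuR KD and LacZ on the log2(TPM + 1) scale and bars its 95% interval from limma, for human genes in humanized livers and mouse genes in WT livers. The intervals of RN7SL1, Rn7s2, Rn7s1 and Rn7sk cross 0, and those of Rpph1 (0.14 to 0.81) and Parp2 (0.056 to 0.37) do not.

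Together the mouse entries held 12.3% to 15.1% of TPM in 11 of the 12 WT livers and 9.85% in HuR KD 6, and 1.25% to 1.94% of reads. In each of the 12 livers Rn7s2 stood highest, then Rn7sk, Rn7s1 and Rpph1, and the ranges of neighbours in that order did not overlap (64566 TPM for the lowest Rn7s2 and 59538 TPM for the highest Rn7sk). The shares of the human and mouse tables have different denominators, since mitochondrial rRNA held 27.2% to 49.1% of the human table and was listed at 0 in the mouse table, so no difference between species is drawn from them. The design also asked whether the effect of knockdown on RN7SK, RMRP and RPPH1 differed between human and mouse, and this could not be computed because the human entries were listed at 0.

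In the library where Rn7sk was low, other short RNAs also stood apart, some low and some high. Against 1.67% to 2.83% of TPM in the other WT livers, genes typed as miRNA held 0.504% in HuR KD 6. Most of that class was a single entry of 57 bases, Gm23935, at 0.321% of TPM in HuR KD 6 and 1.42% to 2.58% in the others. The low share is therefore not read as a result about miRNA genes in general. Rny1 and Rny3, which encode the small Y RNAs also made by RNA polymerase III, were at 634 and 691 TPM there, against 56.9 to 132 and 49.9 to 296 TPM in the other 11 livers, the lowest being LacZ 2 on 3 reads. Rn7sk was 0.349 times the sum of Rn7s1 and Rn7s2 there and 0.596 to 0.842 times in the others. The values of Rn7sk, Rn7s1 and Rpph1 without this library are given with each.

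**Figure D5:**
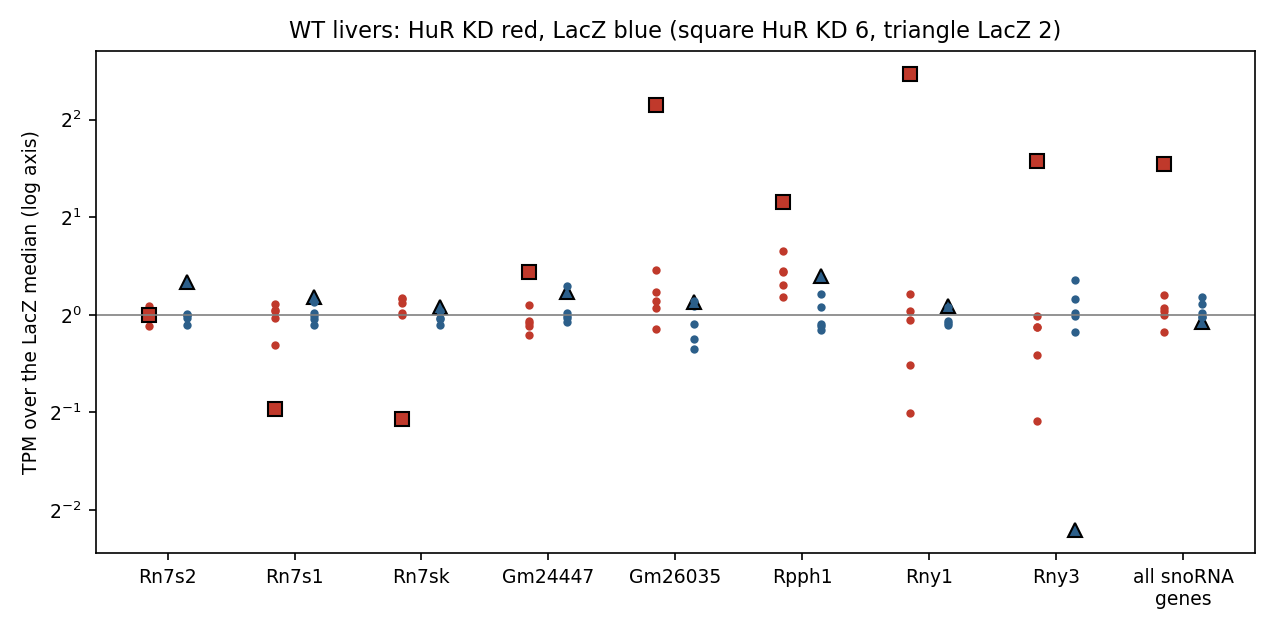
Each WT liver is shown as its TPM over the median of the 6 LacZ livers, on a log axis with base 2, for RNAs of these families, the Y RNAs and all snoRNA genes summed. HuR KD 6 (square) is high for Gm26035 (112 TPM), Rny1 (634 TPM), Rny3 and snoRNA, low for Rn7s1 and Rn7sk, and level for Rn7s2.

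The proteins that work with these RNAs were taken as lists. In humanized livers 0 of 8 signal recognition particle proteins passed the unadjusted threshold, 0 of 7 proteins of the 7SK particle and P-TEFb, and 0 of 10 proteins of RNase P and RNase MRP, where 3.60% of the genes tested were higher and 7.87% lower. The median log2 differences of these lists were -0.055, -0.18 and -0.12, beside -0.054 for all human genes tested. In WT livers 2 of 6 signal recognition particle proteins were lower, 0 of 7 proteins of the 7SK particle passed, and 1 of 10 proteins of RNase P and RNase MRP was higher, where 9.09% of genes tested were higher and 6.94% lower. Their medians were 0.019, 0.062 and 0.0068, beside 0.029 for all mouse genes tested. Srp72 fell from 49.3 ± 4.07 to 42.3 ± 3.82 TPM and Srp14, which binds the Alu end of 7SL, from 53.7 ± 2.01 to 46.4 ± 5.42 TPM (SD, n = 6 each; log2 differences -0.22 and -0.21, adjusted p = 0.176 and 0.195, limma). Pop1, the large scaffold protein of RNase P and RNase MRP, rose from 7.28 ± 0.313 to 8.86 ± 1.44 TPM (log2 difference 0.24, adjusted p = 0.228, limma). Srp72 and Srp14 passed the unadjusted threshold under all 24 alternatives and Pop1 under 21. Dividing by median-of-ratios factors moved the human calls from 458 higher and 1003 lower to 791 and 876, and the median of the human signal recognition particle proteins from -0.055 to 0.0047.

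The RNA polymerase III subunits that were called in WT livers were all higher. In these livers 4 of 13 RNA polymerase III subunits were higher with knockdown and 0 lower, where 9.09% of all genes tested were higher and 6.94% lower. Their median log2 difference was 0.14, beside 0.029 for all genes tested. Polr3c rose from 8.76 ± 0.617 to 10.9 ± 0.757 TPM (log2 difference 0.28, adjusted p = 0.0613, limma). Its groups did not overlap, where the same held for 2.49% of mouse genes tested. Polr3b, the second largest subunit, rose by 0.22 on the log2 scale to 11.8 ± 1.17 TPM. All 4 genes were called under each alternative in which they were tested. Without HuR KD 6 and LacZ 2, 8 of 13 subunits were higher and 0 lower, in a setting where 15.4% of all genes tested were higher, against 9.09% over all livers. Crcp rose from 53.0 ± 6.49 to 63.2 ± 5.90 TPM and Polr3g from 4.42 ± 0.644 to 5.44 ± 0.539 TPM (SD, n = 6 each). In humanized livers 1 of 11 subunits was lower and 0 higher, where 7.87% of all genes tested were lower, and it was POLR3C, which fell to 4.65 ± 0.954 TPM (SD, n = 4) by 0.44 on the log2 scale (adjusted p = 0.434, limma). POLR3C was called under 5 of 21 alternatives and not after scaling by median-of-ratios factors, where no human subunit was. The difference between the sets for this gene was not tested.

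Among transcription factors and regulators of RNA polymerase III, 3 of 18 were higher and 1 lower in WT livers, where 9.09% of all genes tested were higher and 6.94% lower. In humanized livers 1 of 17 was higher and 2 lower, where 3.60% of all genes tested were higher and 7.87% lower. With counts this small, no more is read from them than the values of the single genes. Maf1, the repressor of RNA polymerase III, rose in WT livers from 21.2 ± 0.817 to 25.9 ± 2.12 TPM (log2 difference 0.27, adjusted p = 0.0545, limma). Its groups did not overlap, nor did those of Gtf3c3, where the same held for 2.49% of mouse genes tested. Snapc4, a subunit of the complex that binds promoters in front of such genes, rose from 5.67 ± 0.862 to 7.01 ± 1.07 TPM. Of the TFIIIC subunits, Gtf3c5 rose from 2.45 ± 0.172 to 3.20 ± 0.563 TPM and Gtf3c3 fell from 18.3 ± 0.507 to 15.8 ± 1.47 TPM. In humanized livers BRF2, the initiation factor used at promoters in front of the gene, rose from 3.23 ± 0.671 to 4.74 ± 1.02 TPM. SSB, the La protein that binds the 3′ ends of new RNA polymerase III transcripts, fell from 11.9 ± 2.57 to 8.26 ± 1.57 TPM, and GTF3C4 fell from 4.10 ± 0.458 to 3.03 ± 0.393 TPM. The groups of GTF3C4 did not overlap, where the same held for 7.16% of human genes tested. The adjusted p of these 7 genes was 0.0545 to 0.422 (limma). Maf1, Gtf3c3 and Gtf3c5 were called under each alternative in which they were tested and Snapc4 under 17 of 24, but BRF2 under 11 of 20, SSB under 12 of 21 and GTF3C4 under 6 of 20.

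Calls among other short RNAs of the human table are set beside all human genes tested, of which 3.60% were higher and 7.87% lower. None of 5 Y and vault RNAs, 4 genes of the RNU6 and RNU6ATAC names, 18 7SK pseudogenes or 17 5S rRNA genes passed the unadjusted threshold. Of 41 7SL pseudogenes tested, 2 were higher (RN7SL535P and RN7SL184P) and 3 lower (RN7SL398P, RN7SL388P and RN7SL751P, the last outside the rule for named genes). The first 4 of these had at most 9 reads in any liver. Of 10 snRNA genes of RNA polymerase II, RNU5F-1 was higher, on at most 8 reads. Of 71 entries named only for an RNA family, such as Y_RNA, 5 were higher and 2 lower, and the Y_RNA entries with the smallest p had at most 15 reads. An entry of that list named U6 (ENSG00000283414.1) was among the higher ones, at up to 5.38 TPM with knockdown and listed at 0 in all 4 LacZ livers (adjusted p = 0.241, limma). In WT livers none of 2 Y RNAs, 5 snRNA genes and 7 5S rRNA genes passed.

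The genes whose levels ran most closely with the summed TPM of these RNAs differed between the tables. In humanized livers they included AHR, a ligand-activated transcription factor (Pearson r = 0.93), and ABHD5 (r = 0.92), over 8 livers and 6446 genes ranked. Without HuR KD 4 and LacZ 2, the livers farthest from the median, r was 0.81 and 0.79 over 6 livers. In WT livers they were Gm10736 (r = 0.98), Rpl17-ps8 (r = 0.97) and Zbed5 (r = 0.96), over 12 livers and 9550 genes, and without HuR KD 6 and LacZ 2 r was 0.93, 0.78 and 0.65 over 10 livers. These values share library depth and the sum to 1000000, and describe likeness of pattern only.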

How the data were processed

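RNA from 20 livers was sequenced as stranded total RNA, with paired reads of 75 bases for humanized and 50 bases for WT livers. The authors trimmed reads (cutadapt in the methods, Trim Galore in the submitters' processing notes), aligned them with HISAT2 to mouse GENCODE genes or to a joined human and mouse index, counted them with featureCounts from Subread and deposited TPM, 1 table per species, each library summing to 1000000. How reads with several matches were counted is not given in the sources used here. In a GENCODE M21 check, the lengths behind the mouse TPM matched the annotation for 99.95% of genes. From the steps of the TPM values whole reads were recovered for genes above 0 in at least 4 libraries, and 99.99% of human and 99.996% of mouse values came out whole within 0.05 reads. The members and lists were chosen with earlier results of these data known.

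Differences were fitted on log2(TPM + 1) with limma 3.58.1 in R 4.3.3 (eBayes with trend) over genes whose TPM averaged 1 or more, 12738 human and 15090 mouse genes, each table apart. Calls used an unadjusted p under 0.05, the threshold of the study, with Benjamini-Hochberg adjusted p beside it, and the fit was tested on simulated data. A fold change on this scale understates changes of low genes. The planned test of whether the effect on RN7SK, RMRP and RPPH1 differed between species was not run, since the human entries were listed at 0. Single values were compared by exact permutation tests over livers. p-values measure the spread between livers. Besides the members and HuR, the text names up to 4 genes per list with the smallest unadjusted p under 0.05 and the 3 genes most correlated with the summed members (TPM averaging 5 or more). RN7SL3 to RN7SL5P, the 7SK-related entries, Rn7s6, Rny1, Rny3, Gm23935, Ccnb1ip1, Parp2 and Ccdc107 were named after their values were seen. Alternatives were another pseudocount, filters, scalings, eBayes without trend, a replicate block, single livers removed, and, chosen after seeing the data, voom on recovered reads (1325 human and 3023 mouse genes called) and pairs of outlying livers left out. No human reference sequence was used. A correlated human gene and a sequence are not reported here. Columns not mapped to a liver numbered 0.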

Additional observations from a re-analysis of the deposited data

Results flagged for a closer look

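Of 103 groups of livers tested for a value far from the rest (Dixon's gap test at 95%, which flags about 1 in 20 groups by chance), 29 were flagged: 10 in WT HuR KD 6, 8 in WT LacZ 2, 10 in humanized livers and 1 in another WT liver. The groups are not independent, since sums and ratios reuse the same values. Genes picked for a small p or for following the summed RNAs were also among them. The count of flags is therefore not weighed against that rate.

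In WT HuR KD 6, Rn7sk was at 25149 TPM against 52720 to 59538 TPM in the other 5 knockdown livers, and the ratio of Rn7s2 to Rn7s1 was 30.4 against 14.7 to 17.7. Rn7sk was 0.349 times the sum of Rn7s1 and Rn7s2, against 0.678 to 0.842, and the listed RNAs together held 9.85% of TPM against at least 12.6%. Gm26035 was at 112 TPM against 22.6 to 34.6, and snoRNA genes held 4.23% of TPM against 1.28% to 1.66%. Gtf3c3 was at 12.9 TPM against 15.9 to 16.9, Gtf3c5 at 4.28 against 2.71 to 3.26, Gm10736 at 287 against 558 to 716 and Zbed5 at 8.23 against 15.9 to 18.6.

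In WT LacZ 2, the library with 1424175 reads, Rn7s2 was at 88747 TPM against 65054 to 70274 TPM in the other 5 LacZ livers, the sum of Rn7s1 and Rn7s2 held 9.39% of TPM against 6.93% to 7.47%, and the listed RNAs held 15.1% against 12.3% to 12.9%. Srp72 was at 41.5 TPM against 50.0 to 53.7, Maf1 at 19.7 against 21.2 to 22.1, Gm10736 at 761 against 512 to 562, Rpl17-ps8 at 16.4 against 5.33 to 7.13 and Zbed5 at 23.9 against 15.9 to 17.7. In WT LacZ 3, Pop1 was at 7.92 TPM against 7.09 to 7.19.

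The flagged values of humanized livers were all of entries with few reads. RNU5F-1 was at 16.4 TPM in HuR KD 1 and 6.23 TPM in LacZ 2. RN7SL535P was at 6.55 TPM in HuR KD 2 and 1.23 TPM in LacZ 2, and RN7SL184P at 4.32 TPM in HuR KD 1 and 1.53 TPM in LacZ 2. RN7SL398P at 0.908 TPM and RN7SL388P at 0.266 TPM in HuR KD 4 stood against 0 in the other knockdown livers. Of the Y_RNA entries, ENSG00000199459.1 was at 4.14 TPM in LacZ 2 and ENSG00000202078.1 at 5.73 TPM in HuR KD 3.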

How the results depend on the processing

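Rpph1 was higher with knockdown and kept an unadjusted p under 0.05 under all 24 alternatives (log2 difference 0.35 to 0.54, adjusted p 0.0385 to 0.309), and Rn7s1 stayed lower and not called under all 24 (-0.27 to -0.024). For mouse genes the alternative without mitochondrial rRNA repeats the main fit, since that rRNA was listed at 0. RN7SL1, Rn7sk and Rn7s2 were called under none, but 3 alternatives each for RN7SL1 and Rn7sk and 2 for Rn7s2 turned their sign. Leaving out 1 liver gave -0.15 to 0.29 for RN7SL1, -0.15 to 0.096 for Rn7sk, -0.066 to 0.024 for Rn7s2, 0.35 to 0.54 for Rpph1 and -0.27 to -0.056 for Rn7s1. Rn7sk was at 0.035 with quantile normalization and 0.11 with HuR KD 6 and LacZ 2 left out, and Rn7s2 at 0.024 in the latter. Quantile normalization sets the top gene of each library equal, which makes the difference of Rn7s2 0. It sets values by rank and also gave 0 for RN7SL1, which ranked 1 or 2 in every humanized liver. The listed RNAs held 23.7% of human TPM on average, 36.3% without mitochondrial rRNA and 4.11% of recovered reads, and 12.8% of mouse TPM and 1.61% of reads. Leaving out 1 liver gave 22.1% to 25.1% and 12.6% to 13.1%. Of human genes 1461 were called at the unadjusted threshold, 931 when TPM had to average 5 (6447 genes tested) and 1098 to 1958 with 1 liver left out, and of mouse genes 2418, with 1911 to 2856. At an adjusted p under 0.05 the counts were 27 (0 to 172 over the alternatives) and 134 (17 to 762). With median-of-ratios factors the human split was 791 higher and 876 lower against 458 and 1003. Deviations of same-numbered livers of the 2 groups had correlations of -0.25 to 0.14 in humanized and -0.14 to 0.21 in WT livers. With so few livers these cannot show whether the numbers pair them, and the main fits left pairing out. With the replicate number as a block, 1401 human and 2242 mouse genes were called, and 0 and 17 after adjustment, and no call of a listed RNA changed. The 3 alternatives for the difference between species were not run, as the human entries were listed at 0. Depth limits Rpph1 and Parp2 in WT LacZ 2, with 134 and 13 reads. The causes of these changes were not tested.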
